A study of Mus musculus with 45 samples.

Results

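The collagen genes of the mouse uterus were taken from the count table as every row whose symbol is Col, a number, the letter a and a number. There were 44 such genes among 24422 genes. Expression had been measured by STRT RNA-seq, which reads the 5′ ends of polyadenylated transcripts, in CD-1 females that were wildtype (WT) or knockouts of Plag1 (KO), a zinc finger transcription factor gene. Each mouse gave 3 samples, namely a piece of intact uterine horn (uterus), the mucosa scraped off with a scalpel (endometrium) and the wall left behind (myometrium), and with 7 mice of each genotype this made 6 groups of 7 and 42 samples. All mice of both genotypes were sexually mature, 1 to 3 months old per the study's methods, and had been superovulated with pregnant mare serum and then human chorionic gonadotropin. They were killed on the next day, so every level belongs to the gonadotropin-stimulated uterus. In that protocol females were mated with WT males, apart from donors of oocytes. Which of the mice used here had been mated was not stated. The knockout was carried by the whole animal and not by a chosen cell type, and the layers were separated by hand. Counts of Plag1 were 0 or 1 in each of the 42 samples, so the genotype labels could not be checked against the targeted gene at this depth.

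Collagens are extracellular proteins made of chains wound around each other in a helix, and each Col gene encodes a chain. Fibrillar types (I, III, V and others) build the fibrils that bear load, fibril-associated types sit on those fibrils, type IV forms the mesh of basement membranes, type VI forms beaded filaments around cells, and multiplexins (XV and XVIII) lie at basement membranes. In the uterus, collagen lies in the endometrial stroma, between the smooth muscle bundles of the myometrium and around vessels, and it is known to be remodelled through the estrous cycle and in pregnancy.

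Sequences around transcript starts are shown for genes on both sides of the layer difference described below. Col1a2 and Col3a1 are fibrillar genes that were lower in endometrium, and Col18a1 was the collagen gene that was higher there in both genotypes. RefSeq start windows (build GRCm38.p6) were matched for 35 of the 44 genes, with 38 windows in all. The 9 genes without an entry were Col12a1, Col14a1, Col1a1, Col22a1, Col26a1, Col2a1, Col4a3, Col5a2 and Col9a3. The 250 bases before each start are printed 5′ to 3′ on the gene's strand, and capitals mark the TATA motif TATAAA, the CCAAT box CCAAT and the GC box GGGCGG, searched on both strands.
Col1a2 (chr6:4505368-4505617, plus strand): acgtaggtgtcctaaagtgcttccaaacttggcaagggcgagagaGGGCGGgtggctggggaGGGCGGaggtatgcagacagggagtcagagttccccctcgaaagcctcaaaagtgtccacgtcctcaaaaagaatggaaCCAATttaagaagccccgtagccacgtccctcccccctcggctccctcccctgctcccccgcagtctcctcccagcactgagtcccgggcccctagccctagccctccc
Col3a1 (chr1:45311288-45311537, plus strand): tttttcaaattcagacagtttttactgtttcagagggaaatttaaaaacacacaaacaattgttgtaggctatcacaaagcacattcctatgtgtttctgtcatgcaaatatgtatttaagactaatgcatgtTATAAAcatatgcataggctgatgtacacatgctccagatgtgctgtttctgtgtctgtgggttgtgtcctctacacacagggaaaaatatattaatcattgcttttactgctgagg
Col18a1, upstream start (chr10:77166531-77166780, minus strand): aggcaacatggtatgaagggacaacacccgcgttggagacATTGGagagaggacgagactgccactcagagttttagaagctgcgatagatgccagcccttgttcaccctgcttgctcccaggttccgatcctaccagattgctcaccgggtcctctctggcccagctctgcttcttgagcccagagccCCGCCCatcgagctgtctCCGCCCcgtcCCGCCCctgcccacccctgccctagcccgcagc
Col18a1, downstream start (chr10:77113706-77113955, minus strand): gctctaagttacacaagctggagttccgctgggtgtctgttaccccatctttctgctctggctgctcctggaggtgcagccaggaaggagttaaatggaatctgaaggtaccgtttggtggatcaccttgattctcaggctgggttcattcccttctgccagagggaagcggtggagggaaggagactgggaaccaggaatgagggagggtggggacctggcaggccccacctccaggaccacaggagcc
The Col1a2 window held 1 CCAAT and 2 GGGCGG matches, the Col3a1 window held 1 TATAAA match, the upstream Col18a1 window held 1 CCAAT and 3 GGGCGG matches, and the downstream one held none of these motifs. The 3 motifs do not overlap one another in these windows. Among all 32851 windows of this length, 12.4% held TATAAA, 33.8% held CCAAT and 32.7% held GGGCGG, and among the 38 collagen windows the shares were 13.2%, 34.2% and 57.9%. A match is a description of the letters only.
Col4a1 and Col4a2 encode the chains of the common type IV network and are transcribed away from each other from starts that overlap. Their RefSeq starts enclose the 22 bases chr8:11312805-11312826, printed on the plus strand.
Col4a2 and Col4a1 shared start: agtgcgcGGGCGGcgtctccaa
Here the capitals mark the GC box.

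In the gene models of build NCBIM37 (mm9), the build the files used, Col1a1 lies at chr11:94797538-94814356 on the plus strand, Col1a2 at chr6:4454814-4491543 and Col3a1 at chr1:45368383-45406551. Col18a1 lies at chr10:76514923-76629293, Col4a1 at chr8:11198423-11312826 and Col4a2 at chr8:11312805-11449287. Genes on the opposite strand share bases with Col1a1 (Gm17329), Col18a1 (Slc19a1), Col12a1 (4930562D21Rik), Col15a1 (Gm12426), Col4a1 (Gm15418 and Col4a2) and Col4a2 (Gm15419 and Col4a1). The same holds for Col4a5 (Gm15282), Col4a6 (Gm15078 and Gm15079), Col5a1 (2810430I11Rik and Gm13372), Col5a3 (7SK), Col6a4 (U6) and Col8a2 (AL606976.2). It also holds for Col4a3 (C430014B12Rik), Col9a3 (Tcfl5), Col10a1 (Nt5dc1) and Col22a1 (Gm16308). Whether counting used strand was not stated, so reads of these partners cannot be told apart.

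Levels are given as CPM, the counts per 1000000 counts after TMM scaling, and since STRT reads one end of a transcript they were not divided by gene length. Total counts were 264095 to 1232992 per library, so 3 counts, the limit that a count of 0 allows, correspond to 2.43 to 11.4 CPM for counting error only. The collagen genes took 0.326% of all gene counts. Col1a1 and Col1a2, the chains of type I collagen, and Col3a1, the chain of type III, held 63.3% of collagen counts, and the 10 genes with the highest means held 91.7%. The mean over the 42 samples was 921 CPM for Col1a1, 753 for Col3a1 and 671 for Col1a2. The type VI chains followed, with 261 CPM for Col6a2, 249 for Col6a1, 129 for Col6a3 and 54.8 for Col6a4, and the type IV chains Col4a1 and Col4a2 had 128 and 73.3 CPM. Col18a1 (74.0 CPM), Col5a2 (54.6), whose type V chains enter type I fibrils, and Col15a1, just past the mark, completed the 12 genes with at least 50 CPM. The other 32 were lower, and 24 of the 44 had a mean under 5 CPM. Col2a1, Col9a1, Col10a1 and Col19a1 had no count in any sample. Of these, Col2a1, Col9a1 and Col10a1 are known from cartilage.

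**Figure D1:**
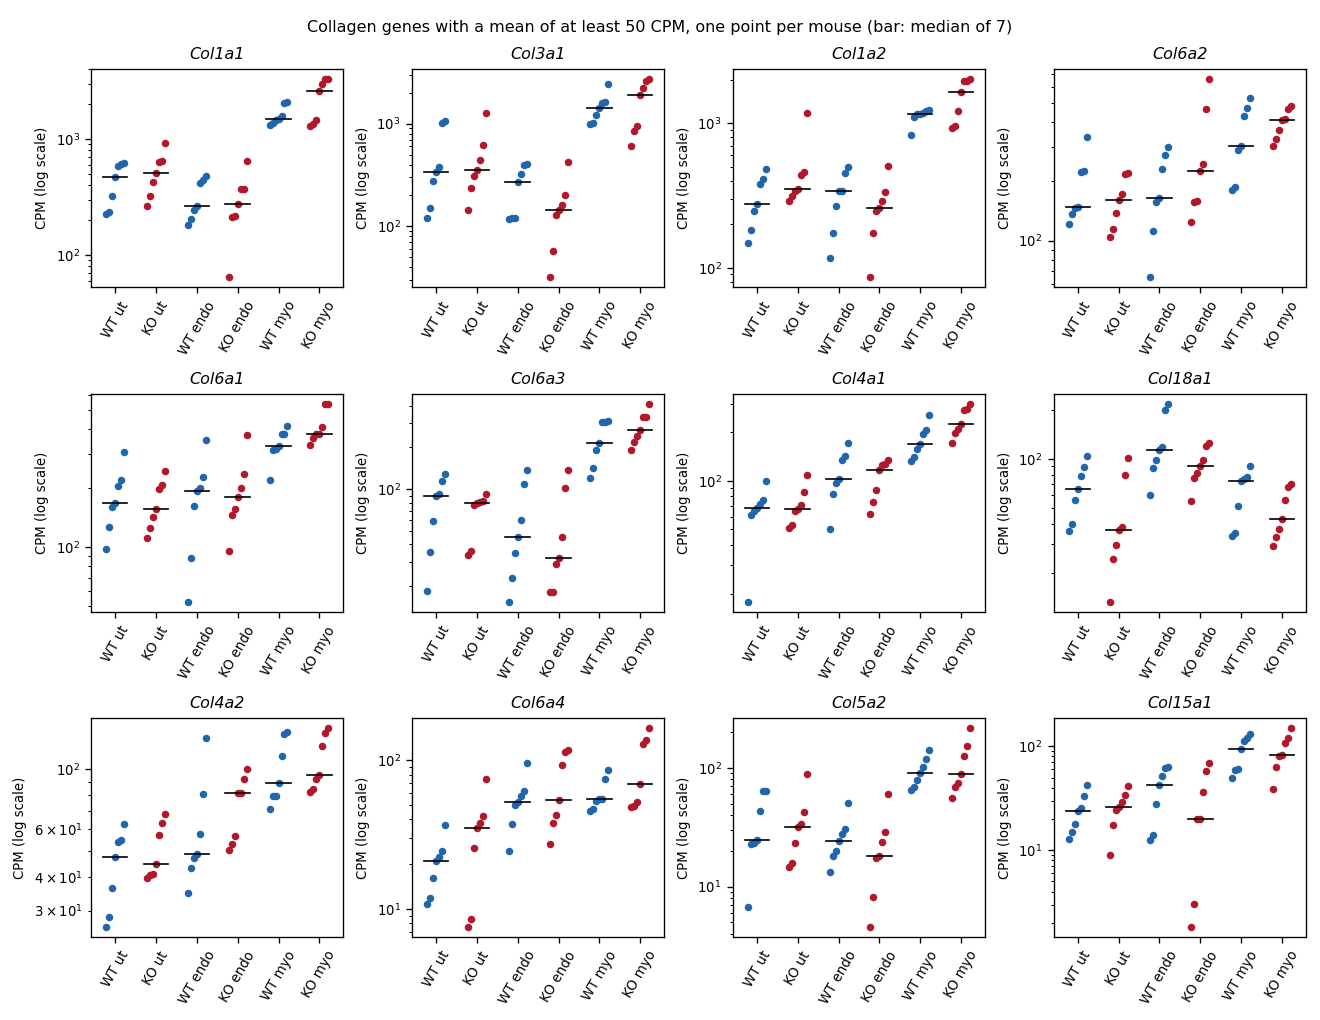
Each panel gives CPM on a log axis for 1 of the 12 collagen genes with a mean of at least 50 CPM, with 1 point per mouse in each of the 6 groups (blue WT, red KO) and a bar at the median of 7. All 7 myometrium values of Col1a1, Col1a2 and Col3a1 lie above all 7 endometrium values within each genotype, while Col18a1 has its highest medians in endometrium.

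Cell markers were checked first. Summed epithelial markers had medians of 918 CPM in WT and 1453 CPM in KO endometrium against 103 and 191 CPM in myometrium, and summed smooth muscle markers had medians of 1165 and 483 CPM in endometrium against 12501 and 16106 CPM in myometrium. No marker list was at 0 in any group, and the scrapings of 2 mice stood apart. The endometrium of KO mouse 13 held 8137 CPM of smooth muscle markers and that of WT mouse 3 held 7173 CPM, whereas the other 6 mice of each group held 199 to 922 CPM and 333 to 2273 CPM. The sample of KO mouse 13 was summed from 3 libraries, some of them in plate rows that otherwise held uterus or myometrium. Marker values per library are not given. Stromal fibroblast markers, a list that does not include collagen genes, had medians of 1525 and 1707 CPM in endometrium and 2758 and 4117 CPM in myometrium. Dcn, with medians of 968 and 2009 CPM in the WT layers, made up most of this sum. Medians of Lum, Vim and Pdgfrb were also higher in WT myometrium. Pdgfra had 40.6 and 40.7 CPM in WT endometrium and myometrium, and Thy1 went the other way, with 60.1 and 46.1 CPM.

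Which collagen genes differ between the layers was asked within each genotype. Collagen RNA was lower in endometrium than in myometrium. Collagen genes took a median of 0.167% of counts in WT endometrium (lowest 0.136%, highest 0.366%) and 0.585% in WT myometrium (0.519% to 0.820%). In KO mice they took 0.168% (0.0831% to 0.314%) and 0.843% (0.446% to 1.18%). The layers did not overlap in either genotype. In edgeR's quasi-likelihood test with Benjamini-Hochberg adjustment over all genes, 14 of the 32 collagen genes that passed the filter were lower in WT endometrium and 1 was higher, where 13.2% of all genes tested were called and 6.81% were higher. In KO mice 18 of 32 were lower and 1 was higher, where 19.3% of all genes were called. Lower calls alone made up 6.39% of all genes in WT and 8.71% in KO mice. The median log2 fold change of the collagen genes was -0.70 in WT and -1.12 in KO mice, and over all genes tested it was 0.01 and 0.08. In these bulk samples fewer cells of a type and less RNA per cell cannot be told apart. In these fits both layers of a mouse entered as separate samples. The p-values thus measure the spread between these mice within a layer, not that of the difference within a mouse.

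Type I and III chains carried the difference in counts. Col1a1 had 181 to 478 CPM in WT endometrium (median 262) and 1316 to 2079 CPM in WT myometrium (median 1490). In KO mice it had 63.8 to 642 CPM (median 276) in endometrium and 1296 to 3301 CPM (median 2565) in myometrium. The groups did not overlap, and the log2 fold change was -2.35 ± 0.24 (SE, edgeR adjusted p = 8.66e-07) in WT, a 5.10-fold difference, and -2.91 ± 0.36 in KO mice (edgeR adjusted p = 4.95e-06). Col3a1 had medians of 272 CPM (117 to 403) and 1418 CPM (981 to 2403) in WT endometrium and myometrium. In KO mice the medians were 143 CPM (31.9 to 422) and 1915 CPM (602 to 2730). Again the layers did not overlap, with a log2 fold change of -2.53 ± 0.30 in WT and -3.35 ± 0.44 in KO mice. Col1a2 had medians of 338 CPM (116 to 495) and 1160 CPM (835 to 1237) in WT and 259 CPM (85.6 to 502) and 1657 CPM (927 to 2034) in KO mice. Its log2 fold change was -1.86 ± 0.26 in WT and -2.49 ± 0.30 in KO mice, and all 7 mice of each genotype were lower in endometrium for these 3 genes. Type I and III chains took a median of 47.5% of collagen counts in WT endometrium and 36.3% in KO endometrium, against 70.8% and 73.1% in myometrium.

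Among the other fibrillar genes, type V chains fell in both genotypes. Col5a2 had medians of 24.3 CPM (13.3 to 51.0) and 91.3 CPM (65.5 to 141) in WT endometrium and myometrium and of 18.0 CPM (4.55 to 60.1) and 89.4 CPM (56.0 to 216) in KO mice. WT layers did not overlap and KO layers did, and the log2 fold change was -1.84 ± 0.29 in WT and -2.20 ± 0.40 in KO mice. Col5a1 fell by 1.08 and 0.93 on the log2 scale and Col5a3 by 1.30 and 1.56. Col11a1, a minor fibrillar chain, was called in KO mice alone, at -1.97 ± 0.57 against -0.39 ± 0.63 in WT. The interaction for Col11a1 did not pass the threshold (edgeR adjusted p = 0.993). Of the 9 fibrillar genes tested, 6 were lower in WT and 7 in KO endometrium, and Col24a1 and Col27a1 passed in neither.

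Col12a1, a fibril-associated chain that binds type I fibrils, had the largest fall of the 3 genes of its class that passed in both genotypes. It reached 9.15 CPM (median 2.50) in WT endometrium and 17.7 to 69.0 CPM (median 32.6) in WT myometrium. In KO mice it had 0 to 3.73 CPM (median 2.67) and 5.87 to 82.6 CPM (median 17.1). The layers did not overlap, and the log2 fold change was -3.41 ± 0.45 in WT (edgeR adjusted p = 1.29e-05) and -3.66 ± 0.59 in KO mice (edgeR adjusted p = 9.58e-05). Endometrium values of this gene were near the limit that a count of 0 allows. Col14a1, also found on fibrils, fell by 1.39 and 2.38, and Col16a1 by 1.33 and 1.46. Col16a1 had medians of 22.5 and 48.8 CPM in WT and of 21.4 and 55.7 CPM in KO mice, with no overlap between layers.

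Of the 6 type IV genes tested, 2 were lower in WT endometrium and 3 in KO endometrium. Col4a1 had 50.5 to 171 CPM (median 103) in WT endometrium and 132 to 255 CPM (median 169) in WT myometrium, which overlapped. In KO mice it had 62.3 to 134 CPM (median 116) and 171 to 301 CPM (median 226), which did not. Its log2 fold change was -1.18 ± 0.22 in KO mice (edgeR adjusted p = 0.000362) and -0.68 ± 0.25 in WT (edgeR adjusted p = 0.0791). With mouse number as a replicate block, Col4a1 was at -0.74 in WT (edgeR adjusted p = 0.0393). Col4a2 had medians of 48.5 and 88.7 CPM in WT and of 81.4 and 94.9 CPM in KO mice, and its log2 fold changes of -0.66 ± 0.28 and -0.53 ± 0.22 did not pass, although the WT value did without mouse 3 (-0.85, edgeR adjusted p = 0.0472) and the KO value did with DESeq2 (DESeq2 adjusted p = 0.0453) and with a 10 CPM filter (edgeR adjusted p = 0.0305). The X-linked pair Col4a5 and Col4a6, which are known from smooth muscle basement membrane, were lower by log2 fold changes of -1.65 and -1.13 in WT and of -2.23 and -1.79 in KO mice. Col4a3 and Col4a4 passed in neither genotype.

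Of the 6 type VI genes tested, 2 were lower in each genotype. Col6a3 had medians of 44.9 CPM (15.3 to 137) and 214 CPM (120 to 310) in WT endometrium and myometrium, with an overlap. In KO mice it ranged from 18.2 to 138 CPM in endometrium and had a median of 268 CPM (191 to 415) in myometrium, with none. Its log2 fold change was -1.93 ± 0.37 in WT and -2.34 ± 0.37 in KO mice. Col6a1, with medians of 193 and 328 CPM in WT and of 180 and 380 CPM in KO mice, fell by 0.89 and 1.07. Col6a2, the chain that assembles with both, had log2 fold changes of -0.88 ± 0.30 in WT (edgeR adjusted p = 0.0516) and -0.43 ± 0.29 in KO mice (edgeR adjusted p = 0.347). It passed in both genotypes with the mouse as a replicate block, at -0.91 (edgeR adjusted p = 0.00463) and -0.64 (edgeR adjusted p = 0.0148), and in WT also without mouse 5 or 12 (edgeR adjusted p = 0.0332 and 0.0477) and with DESeq2 (DESeq2 adjusted p = 0.0471), while its KO value turned to 0.10 with spike-in library sizes. Col6a4 had medians of 52.3 and 54.6 CPM in WT and of 53.8 and 68.8 CPM in KO mice, and its log2 fold changes were -0.14 ± 0.28 in WT, which turned to 0.024 with spike-in library sizes, and -0.43 ± 0.34 in KO mice.

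The multiplexins went opposite ways. Col18a1, whose C-terminal end is known as the source of endostatin, had 59.9 to 218 CPM (median 114) in WT endometrium and 33.5 to 90.4 CPM (median 72.9) in WT myometrium. In KO mice it had 54.7 to 126 CPM (median 90.2) and 29.3 to 70.5 CPM (median 42.9). The groups overlapped, but 6 of 7 WT mice and 7 of 7 KO mice were higher in endometrium. The log2 fold change was 1.02 ± 0.30 in WT (edgeR adjusted p = 0.0201) and 0.96 ± 0.25 in KO mice (edgeR adjusted p = 0.00815). Col15a1, its closest relative, fell by 1.18 in WT and by 1.59 in KO mice, with medians of 42.5 and 94.1 CPM in WT and of 20.0 and 81.9 CPM in KO mice. The short-chain genes Col8a1 and Col8a2, known from vessel walls and from the membrane below corneal endothelium, passed in KO mice, at -2.42 and -2.46. In WT mice Col8a1 was not tested and Col8a2 was at -0.63 ± 0.86, and the interaction did not pass for either (edgeR adjusted p = 1.00 and 0.993). Their means were 1.41 and 2.22 CPM, about 1 to 2 counts per sample, and Col8a1 lost its call with the replicate block (edgeR adjusted p = 0.0551). Col23a1, a transmembrane collagen, had medians of 9.10 and 1.19 CPM in WT endometrium and myometrium and of 6.07 and 8.26 CPM in KO mice, and passed in neither genotype. Col7a1, the anchoring fibril chain, and Col26a1 did not pass either, at log2 fold changes of -0.60 ± 0.70 and 0.12 ± 0.89 in WT.

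**Figure D2:**
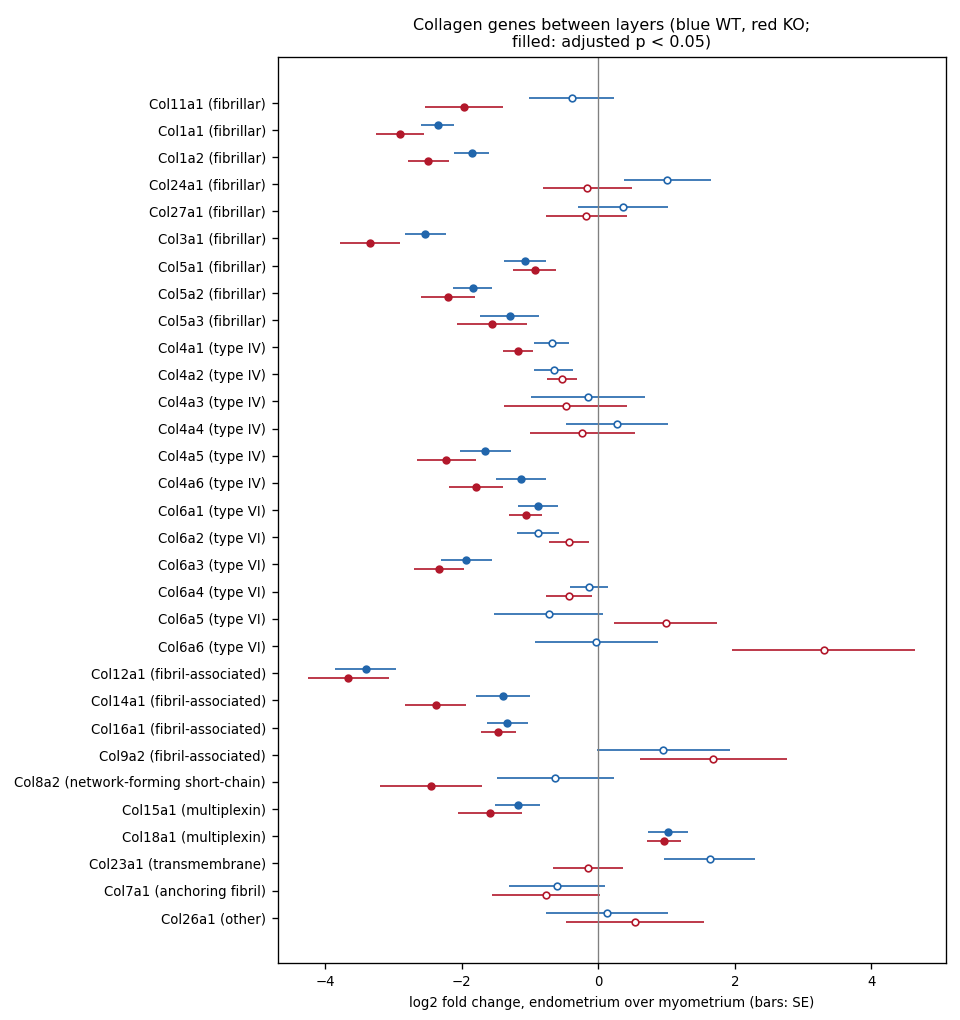
Log2 fold changes of endometrium over myometrium (x axis, bars SE) are drawn for the collagen genes tested in both genotypes, grouped by class, with WT in blue, KO in red and filled circles where the adjusted p was under 0.05. Filled points lie left of 0 for Col1a1 (-2.35 and -2.91) and Col12a1 (-3.41 and -3.66), and right of 0 for Col18a1 alone (1.02 and 0.96).

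All 7 endometrium values lay below all 7 myometrium values for 6 collagen genes in WT (Col12a1, Col16a1, Col1a1, Col1a2, Col3a1 and Col5a2), where 1.90% of all genes tested did so. In KO mice 7 genes did (Col12a1, Col16a1, Col1a1, Col1a2, Col3a1, Col4a1 and Col6a3), against 2.62% of all genes. Leaving out each mouse in turn kept 8 of the 15 WT calls throughout, for Col12a1, Col16a1, Col1a1, Col1a2, Col3a1, Col4a5, Col5a2 and Col6a3. The call of Col14a1 was lost without WT mouse 8, 10 or 12, that of Col15a1 without 1 or 12, that of Col18a1 without 1, 3 or 12 and that of Col5a1 without 3, 8 or 12, with edgeR adjusted p of up to 0.0679, 0.0613, 0.0790 and 0.0650. The calls of Col4a6 (without 1, 7, 8, 10 or 12, up to 0.170), Col5a3 (without any 1 mouse other than 5, up to 0.139) and Col6a1 (without any 1 mouse other than mouse 1, up to 0.110) were the least stable. Without WT mouse 12 the count was 9, and without WT mouse 3, whose scraping held muscle markers, it was 12.

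In KO mice 13 of 19 calls were kept without any 1 mouse. Those lost were Col15a1 without mouse 4 (edgeR adjusted p = 0.0740), Col11a1 without 13 or 14 (up to 0.0651), Col8a1 without 6, 13 or 14 (up to 0.0741), Col8a2 without 2, 11, 13 or 14 (up to 0.0810), Col5a3 without 2, 4, 6 or 11 (up to 0.168) and Col5a1 without 2, 4, 6, 11 or 14 (up to 0.133). Without KO mouse 13 the count was 16. No collagen gene called here changed its direction under another scaling, but with library sizes taken from the spike-in RNA only 9 genes were called in WT and 12 in KO mice. Under that scaling the median log2 fold change over all genes was 0.21 in WT and 0.58 in KO mice. All 4 smooth muscle markers were lower and all 4 epithelial markers higher in endometrium in both genotypes, and 3 of 6 stromal markers were lower in WT and 4 of 6 in KO mice. The part of these cell markers in the collagen difference was not tested.

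**Figure D3:**
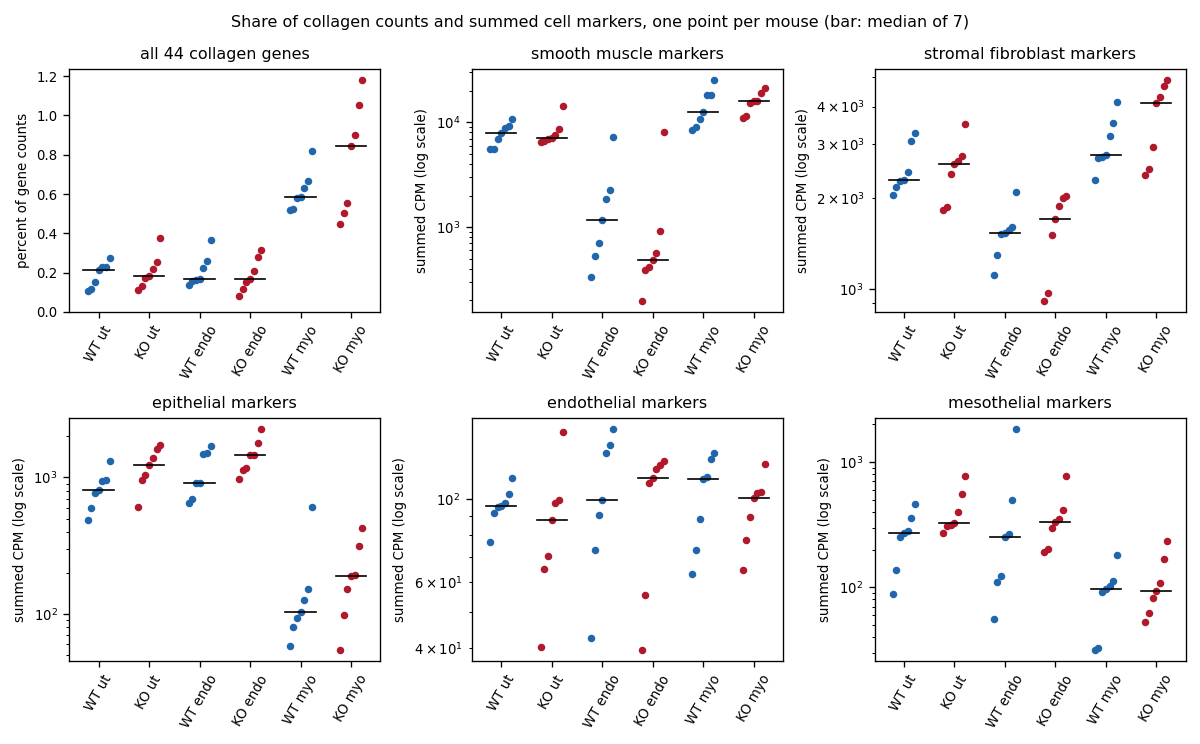
The percent of gene counts held by all 44 collagen genes (linear axis) and the summed CPM of 5 marker lists (log axes) are drawn with 1 point per mouse and a bar at the median of 7 (blue WT, red KO). The collagen share is higher in every myometrium than in every endometrium of the same genotype, and the endometria of WT mouse 3 (7173 CPM) and KO mouse 13 (8137 CPM) stand out among the smooth muscle markers. Mesothelial sums had medians of 250 and 335 CPM in WT and KO endometrium, where Krt19 alone had 176 and 317 CPM.

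The plate wells in the labels put mice 1 to 8 in rows A to C of the plate, and those numbered 9 to 14 in the rows D to F. The layer difference of Col1a1 in mean log2(CPM + 1) was -2.45 in rows A to C and -2.35 in rows D to F in WT mice, and -3.82 and -2.50 in KO mice. For Col3a1 it was -2.61 and -2.79 in WT and -4.68 and -2.68 in KO mice. For Col18a1 it was 1.09 and 0.77 in WT and 1.16 and 0.79 in KO mice. Each direction thus held in both sets of rows, which had the same order of tissues. Across the 12 genes with at least 50 CPM, a split noticed after seeing the data and not tested was that for 7 (Col1a1, Col1a2, Col3a1, Col5a2, Col6a2, Col6a3 and Col15a1) all KO layer differences of rows A to C lay below all of rows D to F, where 3.1% of all genes tested did so, and in WT mice, with 5 and 2 mice, this held for 0 of 12, where 4.0% of all genes did so.

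Enzymes and receptors that act on collagen were counted from a list of 40 genes. Those named below are the 3 of each class with the smallest p between layers of KO mice, so they were picked from these same data. Over all genes tested, 6.39% were lower and 6.81% higher in WT endometrium and 8.71% and 10.6% in KO endometrium. Of 17 modification and folding genes tested, 3 were lower and 1 was higher in WT endometrium, and 5 were lower and 1 was higher in KO mice. Serpinh1, the collagen chaperone, fell by 1.29 in WT and 1.39 in KO mice, and Plod2, which hydroxylates lysines of the collagen ends, was lower as well (-1.81 and -2.10). P4hb, a subunit of prolyl 4-hydroxylase that also acts as a general disulfide isomerase, rose by 0.82 and 1.21. Of 11 processing and crosslinking genes, 3 were lower in WT and 4 in KO endometrium, among them the crosslinking oxidase Lox (-1.62 and -1.91) and the propeptide proteases Adamts2 (-1.92 and -1.61) and Adamts3 (-2.59 and -3.13). Adamts3 had medians of 0 CPM in endometrium of both genotypes and of 6.64 and 6.88 CPM in WT and KO myometrium. Its values were thus near the limit that a count of 0 allows. Of the receptors, 4 of 9 were lower in WT and 4 of 8 in KO endometrium, among them the integrin chains Itga1 (-1.41 and -1.75) and Itgb1 (-0.96 and -1.27) and the collagen uptake receptor Mrc2 (-1.29 and -1.18).

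The whole horn was compared with each layer over the 14 mice of both genotypes. Against myometrium 20 of 36 collagen genes were lower in uterus and 0 were higher, where 27.7% of all genes were called and 12.1% were lower. At an unadjusted p under 0.05, which 38% of all genes passed, none was higher either, and DESeq2 also called 20. Col1a1 fell by 1.99 on the log2 scale (SE 0.19, edgeR adjusted p = 8.41e-10), Col1a2 by 1.77, Col3a1 by 1.71, Col4a1 by 1.57 and Col4a2 by 1.11. Col18a1 had a log2 fold change of 0.06 ± 0.22, whose sign depended on the scaling and which was 0.67 with spike-in library sizes (edgeR adjusted p = 0.0418). The calls of Col14a1 (without KO mouse 4, edgeR adjusted p = 0.0789) and Col7a1 (without WT mouse 12, edgeR adjusted p = 0.112) were each lost when 1 mouse was left out. Both genes stayed lower in uterus without any 1 mouse. Markers of other cells moved in the same comparison, with 4 of 4 epithelial and 4 of 5 mesothelial markers higher in uterus, 4 of 4 smooth muscle markers lower, and 4 of 6 stromal fibroblast markers lower and 1 higher. Krt19 of the mesothelial list went with the epithelial markers, with medians of 176 and 317 CPM in WT and KO endometrium and 52.5 and 71.2 CPM in myometrium. Medians of Msln, Upk3b and Lrrn4 in endometrium were 0 to 1.34 CPM. The mesothelial list thus cannot be read as mesothelium alone.

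Against endometrium 6 of 35 collagen genes were called, where 8.89% of all genes were called, 5.35% as higher and 3.54% as lower. Col12a1 (2.06 ± 0.38), Col3a1 (1.23 ± 0.34) and Col14a1 (1.08 ± 0.35) were higher in uterus, and Col6a4 (-1.23 ± 0.28), Col18a1 (-0.96 ± 0.23) and Col4a1 (-0.66 ± 0.20) were lower. Col12a1, Col18a1 and Col6a4 kept their calls without any 1 mouse. Col3a1 lost its call without KO mouse 9 (edgeR adjusted p = 0.0642), Col4a1 without any of mice 1, 3, 6, 8, 10, 13 and 14 (up to 0.0629) and Col14a1 without any of mice 2, 4, 5, 7, 8, 9, 10, 11, 12 and 14 (up to 0.114). With spike-in library sizes Col18a1 (-0.63) and Col4a1 (-0.42) kept their direction and did not pass. With mouse number as a replicate block, Col1a1 passed as well, at 0.66 (edgeR adjusted p = 0.00962), and it passed without KO mouse 13, at 0.77 (edgeR adjusted p = 0.0373). Col4a2, which did not pass, did so with DESeq2 (-0.56, DESeq2 adjusted p = 0.0257). All 4 smooth muscle markers and 3 of 5 mesothelial markers were higher in uterus, none of the 4 epithelial markers was called, and of the 6 stromal markers 3 were higher and 1 was lower.

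The median of the 14 uterus samples lay below the medians of both layers for 17 of 34 collagen genes, between them for 12 and above both for 1 (Col8a2), and for 4 (Col22a1, Col6a6, Col9a2 and Col9a3) it was 0 and tied with a layer, where 28.0% of 13890 genes lay below both. Among the 17, Col11a1, Col23a1, Col24a1, Col27a1, Col5a3, Col6a5 and Col7a1 had uterus medians of 0 to 4.56 CPM, so their order rests on few counts. Col4a1 had a median of 67.0 CPM in uterus, 110 in endometrium and 203 in myometrium. Col6a4 had 23.3, 53.1 and 54.7 CPM, and Col18a1 had 47.9, 98.4 and 53.6 CPM. Type I and III genes did not share this order, since Col1a1 had a median of 490 CPM in uterus, 269 in endometrium and 1527 in myometrium, and Col3a1 had 346, 153 and 1494 CPM. With CPM from spike-in library sizes, an alternative chosen after seeing the data, 12 of 34 collagen genes and 13.7% of all genes lay below both layers. Without KO mouse 13 the collagen count stayed at 17. Smooth muscle markers in uterus had medians of 7897 CPM in WT and 7096 CPM in KO mice, and the part of the cell markers in these comparisons and orders was not tested.

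**Figure D4:**
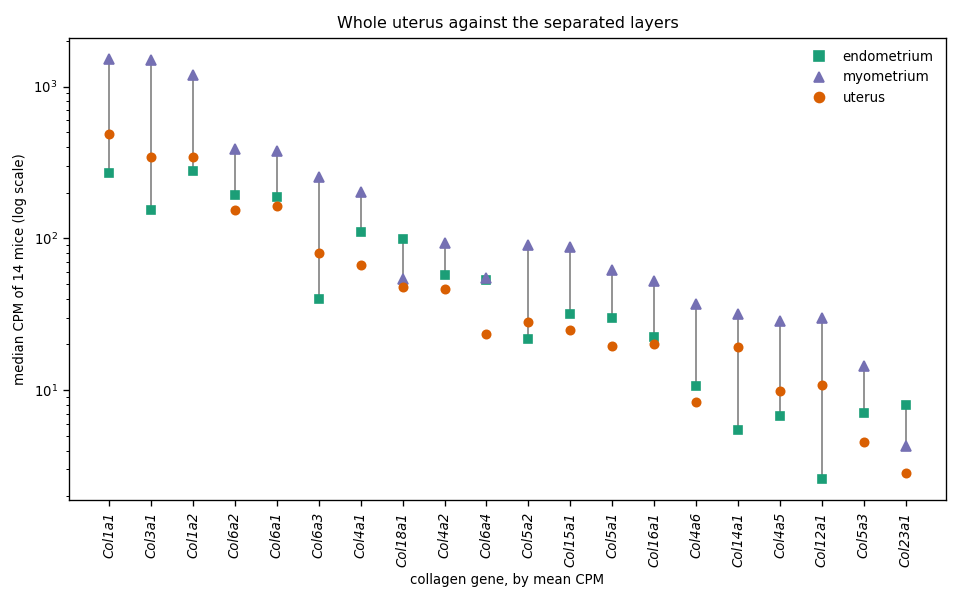
Median CPM of 14 mice (log axis) in endometrium (squares), uterus (circles) and myometrium (triangles) for collagen genes with a mean of at least 5 CPM, ordered by that mean, with a grey line joining the layers. The uterus lies between the layers for Col1a1 (490 CPM) and Col3a1 (346 CPM) and below both for Col4a1 (67.0 CPM) and Col6a4 (23.3 CPM).

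Whether loss of Plag1 changes collagen RNA was asked within each tissue. Of 31 collagen genes tested in each tissue, edgeR called 0 in uterus, 0 in endometrium and 0 in myometrium, and DESeq2 also called 0, where 0% of all genes were called by edgeR in each. At an unadjusted p under 0.05 there were 2 in uterus, 1 in endometrium and 6 in myometrium, where 5.64%, 5.20% and 4.22% of all genes passed that mark. The median log2 fold change of the collagen genes, KO over WT, was -0.04 for uterus, -0.13 for endometrium and 0.22 for myometrium, and over all genes it was -0.05, 0.02 and -0.03. In myometrium the 6 were Col1a1, Col1a2, Col23a1, Col4a1, Col6a4 and Col8a2, all with higher KO values, and they are named after their values were seen.

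The smallest p in myometrium belonged to Col1a1, with 1316 to 2079 CPM in WT and 1296 to 3301 CPM in KO mice. The genotypes overlapped, and the log2 fold change was 0.53 ± 0.20 (edgeR adjusted p = 1.00). The KO minus WT difference in mean log2(CPM + 1) was 0.51 in plate rows A to C and 0.32 in rows D to F. In uterus it belonged to Col1a2, with 148 to 480 CPM in WT and 292 to 1182 CPM in KO mice. The 1182 CPM came from KO mouse 14, the log2 fold change was 0.66 ± 0.30 (edgeR adjusted p = 0.836), and the difference was 0.14 in rows A to C and 1.03 in rows D to F. In endometrium it belonged to Col4a6, with 2.50 to 26.4 CPM in WT and 3.03 to 16.3 CPM in KO mice. The change was -1.03 ± 0.41 on the log2 scale (edgeR adjusted p = 0.908), with -1.14 in rows A to C and -0.76 in rows D to F. Not all of the 40 enzyme and receptor genes were tested. Modification, processing and receptor genes tested numbered 17, 11 and 8 in uterus, 16, 11 and 9 in endometrium and 17, 10 and 9 in myometrium. None of them was called between genotypes by edgeR, where 0% of all genes were called.

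**Figure D5:**
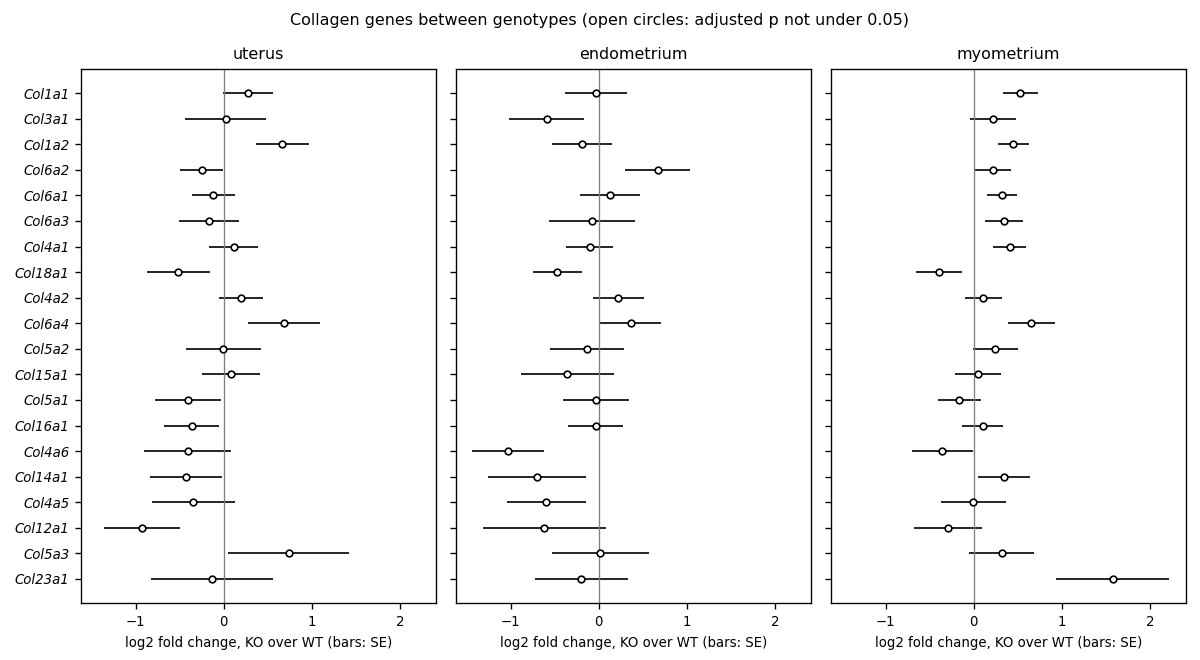
Log2 fold changes of KO over WT (x axis, bars SE) in uterus, endometrium and myometrium for collagen genes with a mean of at least 5 CPM, ordered by that mean, with all circles open because no adjusted p was under 0.05. Col1a1 lies at 0.53 and Col1a2 at 0.45 in myometrium.

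The layer difference itself was compared between genotypes by the interaction term. Of 35 collagen genes tested, 0 passed in edgeR and 0 in DESeq2, where 0% of all genes passed, and 2 (Col23a1 and Col6a6) had an unadjusted p under 0.05, where 4.60% of all genes did. Col23a1 had an interaction of -1.79 ± 0.85 on the log2 scale (edgeR adjusted p = 0.993). Col6a6, which had the smallest p, was at 0 CPM in all 7 KO myometria and reached 5.43 CPM in KO endometrium, so no fold is given. For Col1a1, Col1a2 and Col3a1 the interaction was -0.54 ± 0.43, -0.62 ± 0.39 and -0.79 ± 0.54. The larger KO values of the layer difference were thus not distinguished from the WT values by this test.

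The 14 uterus samples were used to compare 6 pairs of genes by the correlation of log2 CPM with 100000 permutations, 5 of them pairs of chains of the same type and the other one Col1a1 with Col3a1, whose chains belong to different types. Col1a1 and Col3a1 varied together, with Pearson's r = 0.859 (permutation p = 0.00011, adjusted over 6 pairs 0.00066) and Spearman's rho = 0.771 (permutation p = 0.00194, adjusted 0.0116). Without the 2 mice farthest from the Col1a1 median, r was 0.785, and it was 0.824 in plate rows A to C and 0.915 in rows D to F. None of the 5 pairs of a shared type passed after adjustment. Col1a1 and Col1a2, which encode the chains of the same trimer, had r = 0.292 (permutation p = 0.320, adjusted 0.385) and rho = 0.499 (permutation p = 0.0730, adjusted 0.146), with r of 0.865 in rows A to C and -0.351 in rows D to F, the rows that held KO mouse 14. For this pair r was 0.852 in WT and -0.378 in KO mice. Without the 2 mice farthest from the Col1a1 median, which were WT mice 5 and 8, r was -0.219. KO mouse 14, which had the highest Col1a2 value, stayed in that set. Col4a1 and Col4a2 had r = 0.519 (permutation p = 0.0534, adjusted 0.160) and rho = 0.358 (permutation p = 0.210, adjusted 0.315), and r was 0.287 without the 2 mice farthest from the Col4a1 median.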

How the data were processed

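The authors deposited 1 table of raw counts, with 24422 gene symbols, 92 ERCC spike-ins and 45 libraries, all of which were mapped to samples by their labels. Per the study's methods, reads were joined by molecular identifier, aligned with TopHat to mm9 and counted over gene models with Homer, while the submitters' processing notes name HTSeq. How reads with several positions were treated was not given in the sources used here. Repeat libraries of KO endometrium mouse 13 (3) and WT myometrium mouse 12 (2) were summed, since they came from 1 mouse. Genes entered a fit when 5 or more of its samples reached 1 CPM, in edgeR 4.0.16 (R 4.3.3; TMM, quasi-likelihood test, Benjamini-Hochberg threshold 0.05), and 37 of 44 collagen genes passed in at least 1 of 8 fits, 27 in all 8 and 7 in none (Col28a1, Col11a2, Col25a1, Col19a1, Col10a1, Col2a1 and Col9a1). SE is the log2 fold change divided by the square root of F. Tissue samples with the same mouse number came from the same mouse, so the mouse was used as a replicate block in an alternative. Alternatives were DESeq2 1.42.0, other scalings, other filters, all groups in 1 fit, first libraries only, plate rows and leaving out each mouse. The fits were tested on simulated data. Named collagen genes were those with a mean of at least 50 CPM, the highest of each class, called genes and, per genotype comparison, the smallest p. Named enzyme and receptor genes were the 3 of each class with the smallest p between layers of KO mice. The members and lists were chosen with earlier results of these data known. RefSeq start windows (GRCm38.p6) gave sequences only, and gene positions came from NCBIM37.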

Additional observations from a re-analysis of the deposited data

Results flagged for a closer look

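In 156 groups of 7 mice (26 named collagen genes in 6 groups), 11 values stood further from the other 6 mice than Dixon's 95% critical value allows. Chance alone flags about 1 in 20 groups. Values are log2 CPM with a prior count of 2. Col1a2 was at 10.21 in the uterus of KO mouse 14 against 8.20 to 8.85 in the other KO uteri, and at 9.71 in the myometrium of WT mouse 8 against 10.11 to 10.28. Col4a1 was at 4.35 in the uterus of WT mouse 5 against 6.00 to 6.68, and Col23a1 was at 4.09 in that sample against 2.01 to 2.80. Col16a1 was at 3.62 in the endometrium of WT mouse 10 against 4.38 to 4.92. Col26a1 was at 2.91 in the uterus of KO mouse 4 against 1.42 to 1.96, a difference that rests on few counts. Col14a1 was at 3.90 in the myometrium of WT mouse 7 against 4.73 to 5.33, and Col4a6 was at 3.40 in the myometrium of WT mouse 5 against 5.18 to 5.81. Col8a1, also at few counts, was at 1.99 in the endometrium of WT mouse 3 against 1.42 in all others, at 2.44 in the endometrium of KO mouse 11 against 1.42 to 1.63, and at 3.44 in the myometrium of WT mouse 7 against 1.42 to 2.22.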

How the results depend on the processing

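With spike-in library sizes the collagen genes called between layers numbered 9 in WT (1 higher, 8 lower) and 12 in KO mice (Col18a1 and Col6a6 higher, 10 lower), in place of 15 and 19, and the enzyme and receptor genes called numbered 5 in WT, 6 in KO mice and 11 in uterus against myometrium. The share of higher calls over all genes moved from 51.6% to 67.3% in WT layers, from 54.9% to 86.3% in KO layers, from 60.2% to 90.6% in uterus against endometrium and from 56.5% to 92.8% in uterus against myometrium. The cause was not tested. Leaving out each mouse gave 9 to 15 collagen calls in WT layers, 15 to 19 in KO layers, 4 to 6 in uterus against endometrium, 19 to 21 in uterus against myometrium and 0 between genotypes and in the interaction. For the enzyme and receptor genes it gave 8 to 11, 11 to 15, 2 to 5 and 18 to 20, with 5 in uterus against endometrium without KO mouse 13. The replicate block gave 17, 19, 7 and 20 collagen calls and 0 in the interaction, and it changed no collagen call other than those of Col1a1, Col4a1, Col6a2 and Col8a1 given above. No paired analysis of genotypes was possible because a mouse has 1 genotype. Over the collagen genes that were called, had at least 50 CPM or had the smallest p of a genotype comparison, alternatives other than leaving out a mouse kept 584 values on their side of the threshold, while 28 lost and 16 gained a call, and leaving out a mouse kept 760, while 67 lost and 4 gained one. The gains were those of Col6a2 and Col4a2, Col1a1 in uterus against endometrium, Col4a1 in WT layers and Col18a1 in uterus against myometrium. Values that reversed were called neither in the main fit nor after the reversal. With spike-in library sizes they were Col6a4 in WT layers (0.024), Col6a2 in KO layers (0.10) and Col6a1 in uterus against endometrium (0.12). The Col6a2 value was -0.43 in the main fit, and it was called with the replicate block (-0.64, edgeR adjusted p = 0.0148). Col18a1 in uterus against myometrium was -0.020 with DESeq2, -0.018 with RLE size factors, -0.012 with the replicate block, and -0.10 to 0.17 without 1 mouse. Genes under 5 CPM were limited by depth.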

Other observations

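Among KO mice the mean layer difference was lower in plate rows A to C (mice 2, 4 and 6) than in rows D to F (mice 9, 11, 13 and 14) for 10 of the 12 collagen genes with at least 50 CPM, against 6 of 12 in WT mice, a split noticed after seeing the data and not tested. The share of all genes with a lower mean was not counted, so this count cannot be read as particular to collagen genes. The exceptions in KO mice were Col4a1, at -1.21 in both, and Col18a1. In mean log2(CPM + 1), Col15a1 differed between endometrium and myometrium by -3.66 (-4.33 to -2.83) in rows A to C and by -1.11 (-1.63 to -0.64) in rows D to F. For Col3a1 the values were -4.68 (-5.46 to -4.20) and -2.68 (-3.25 to -2.37), and for Col6a3 they were -3.59 (-3.81 to -3.32) and -2.05 (-2.88 to -1.26). Smooth muscle markers in the KO endometria were 199 to 415 CPM in rows A to C and 483 to 8137 CPM in rows D to F, and their part in the split was not tested.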
